A study of Mus musculus with 19 samples.

Results

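Ubiquitin-specific proteases (USP genes) and ubiquitin C-terminal hydrolases (UCH genes) were followed across the day in the mRNA bound to ribosomes of spinal cord cholinergic neurons. Members were all rows of the count table whose symbol is Usp or Uchl followed by a number. Of 62 matching rows, Usp17le-ps and Usp46os1 were left out as a pseudogene and an antisense RNA, so that 60 members remained (56 Usp and 4 Uchl) of 50559 rows. Of the 60, 7 had no count in any immunoprecipitate, 6 had counts but did not pass the filter on low counts, and 47 were tested among 15572 genes. The mice were wild-type C57BL/6J males, 10 wk old, that carried ChAT-Cre and 1 RiboTag allele (RiboTag fx/+), housed in 12 h of light and 12 h of dark. With RiboTag, Cre switches on an HA-tagged (hemagglutinin) form of a ribosomal protein, here under the ChAT (choline acetyltransferase) locus, so that motor neurons and every other cholinergic cell of the cord contribute. Tagged ribosomes were precipitated at Zeitgeber time (ZT, hours after lights on) 0, 4, 8, 12, 16 and 20 from 3 biological replicates each, and 1 pooled input library of the homogenate was also sequenced. All mice carried both alleles, and no group was treated.

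Ubiquitin is a small protein that is joined to other proteins singly or in chains, and most such marks send the protein to the proteasome or change its location or partners. Deubiquitinases cut ubiquitin off again, and the USP proteins are the most numerous class of them, while the UCH class is small and includes UCHL1, one of the most abundant proteins of neurons. In the circadian clock the period and cryptochrome proteins are turned over through ubiquitin, and several USP proteins, among them USP2 and USP7, have been linked to clock proteins.

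The immunoprecipitates held between 6302140 and 22406850 counts, and the input held 15239783. Between replicates of a time point the counts differed by more than sampling noise (chi-square per degree of freedom 5.18 to 51.5), so no library was a copy of another. The first principal component of the 18 immunoprecipitates held 52.8% of the variance over 9214 genes. On it ZT8 replicate 1 scored 5.03, apart from ZT8 replicates 2 and 3, at 42.6 and 29.7, which were the highest of all libraries. Of 7 cholinergic markers 6 were enriched over the input and none was depleted, whereas 7 of 7 oligodendrocyte, 5 of 6 astrocyte, 6 of 6 microglial, 3 of 4 inhibitory, 3 of 3 excitatory and 4 of 4 endothelial markers were depleted. In these bulk samples fewer cells of a type and less RNA per cell cannot be told apart.

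Uchl1 was by far the most abundant member. Its level, in CPM (the counts of a gene per 1000000 counts of its library, scaled by the trimmed mean of M-values, TMM), ranged from 1356 to 3827 over the 18 libraries with a median of 3022. This was 26.9% to 55.1% of the summed level of all members in a library. Per kb of exon the mean level was 1746 CPM for Uchl1 and 171 CPM for Usp5, which cleaves free ubiquitin chains. Usp22, the deubiquitinase of the SAGA transcription complex, followed at 31.9 CPM per kb. Next came Uchl5 at 28.3, the clock-linked Usp7 at 20.2, Usp19 at 19.1, Usp20 at 18.9 and Usp14 at 17.3 CPM per kb. The lowest and highest libraries of Uchl1 and Usp5 do not reach each other on this scale, while Usp22 and Uchl5, and likewise Usp7, Usp19, Usp20 and Usp14, overlap in range with their neighbours.

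**Figure D1:**
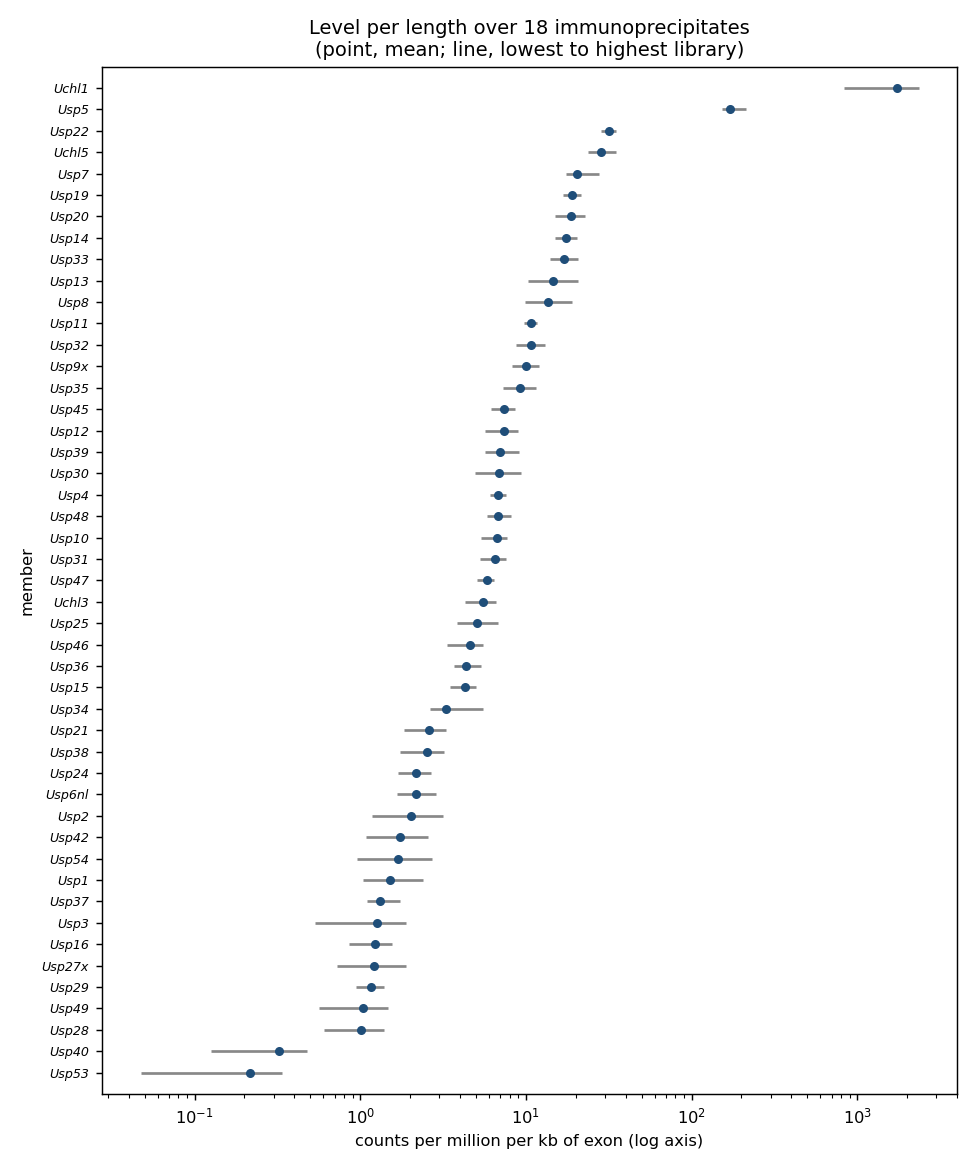
Level of the 47 tested members in CPM per kb of exon (log axis), with the mean as a point and the lowest to highest of 18 immunoprecipitates as a line. Uchl1 stands at 1746 and Usp5 at 171, and all other members lie at or below 31.9.

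At the other end, 7 members had no count in any of the 18 immunoprecipitates: Usp17la, Usp17lb, Usp17lc, Usp17ld, Usp17le, Usp26 and Usp44. In the shallowest library a count of 0 allows up to 0.476 CPM and in the deepest up to 0.134 CPM (3 counts, counting error only). The Usp17-like genes are near-identical copies on chromosome 7, whose reads may be shared or lost in counting. The 6 members below the filter were Usp18, the enzyme that removes the ubiquitin-like ISG15 (73 counts in all), Usp51 (66), Usp43 (24), Uchl4 (4), Usp50 (3) and Usp9y (1). Usp9y, the Y-linked copy, thus had 1 count in male mice, while its X-linked partner Usp9x had 40883 counts and a level of 151 ± 13.8 CPM (SD, n = 18).

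Members varied little over the day. The range of their 6 time-point means had a median of 0.35 on the log2 scale, beside 0.54 over all genes tested. Their biological coefficient of variation between replicates also had a lower median, 11.8% beside 17.5%, and their median level was higher, 41.5 beside 13.8 CPM. The flattest was Usp11, an X-linked USP, at 50.8 ± 2.60 CPM (SD, n = 18) with a range of 0.09 on the log2 scale. Usp9x (0.13), Usp19 (0.14), the proteasome-bound Usp14 (0.14) and Usp4 (0.14) were next. The widest were Usp3 (1.11), Usp54 (0.91), Usp53 (0.85) and Uchl1 (0.83). More members had their highest mean at ZT8 (18 of 47, 38.3%) than at any other time, and over all genes that share was 27.2%.

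Rhythmicity was tested with JTK_Cycle, the rank test the study used, over periods of 20, 24 and 28 h, and with a 24-h cosinor on the counts. JTK_Cycle called 1 of 47 members, Usp12, where 0.0385% of all genes were called (6 of 15572). The test was written anew here and merges equal cosine values. With equal cosines ordered by rounding instead, it called 3 of 47 (Usp12, Usp13 and Usp45) and 1.7% of all genes. The study reported many more rhythmic transcripts with JTK_Cycle in its time course, and the cause of that difference was not tested. Usp12, which needs the partner Wdr48 for activity, had 26.2, 33.1 and 31.6 CPM at ZT0, 34.2, 38.0 and 38.0 at ZT4, 40.2, 40.4 and 41.3 at ZT8. In the second part of the day it had 37.7, 33.4 and 37.4 CPM (ZT12), 32.5, 26.6 and 31.3 CPM (ZT16), then 32.2, 31.9 and 30.1 CPM (ZT20). The 3 ZT8 libraries were above every other library. The test chose a period of 20 h with a peak at ZT8 (JTK_Cycle, Benjamini-Hochberg adjusted p = 0.0229), and with the 24-h period alone the adjusted p was 0.134. The call was also lost when any 1 of 11 libraries was left out, namely ZT4 replicates 2 and 3, all of ZT8 and ZT12, ZT16 replicates 1 and 2 and ZT20 replicate 1 (adjusted p 0.0528 to 0.169). When p-values were adjusted within each gene alone, 8 of 47 members (17.0%) and 15.8% of all genes had p under 0.05. These were Usp12, Usp45, Usp13, Usp10, Usp20, Usp7, Usp54 and Usp24.

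The cosinor called 5 of 47 members (10.6%), and 6.24% of all genes (edgeR quasi-likelihood test, adjusted over all genes, here and for every adjusted p of the contrasts that follow). Their peaks were spread over the day. Usp13 peaked at ZT6.70 with an amplitude of 0.25 (log2, adjusted p = 0.0494), a call lost with DESeq2 size factors or library totals. Usp12 peaked at ZT7.85 with 0.22 (adjusted p = 0.0391). Usp54, long regarded as lacking protease activity, peaked at ZT17.8 with the largest amplitude, 0.43 (adjusted p = 0.0409). Usp10, a partner of the stress granule protein G3BP1, peaked at ZT22.2 with 0.18 (adjusted p = 0.0430). Usp45, linked to DNA repair, peaked at ZT1.87 with 0.18 (adjusted p = 0.0433). The levels of Usp45 were 42.8, 50.4 and 50.5 CPM at ZT0 and 53.5, 51.2 and 53.0 at ZT4. They were 45.9, 50.5 and 42.8 CPM (ZT8), 40.9, 39.8 and 38.6 CPM (ZT12), 43.1, 42.4 and 38.4 CPM (ZT16), then 47.5, 50.3 and 47.1 CPM (ZT20), so that ZT4 lay above ZT12 and ZT16 in every library. Usp10 had 51.3, 54.9 and 61.9 CPM at ZT12 and 66.7, 73.4 and 71.4 at ZT20, and these groups did not overlap. Leaving out 1 library at a time gave 0 to 7 calls, and the count stayed within 1.5 times of 5 only without ZT8 replicate 1 (5), ZT12 replicate 3 (5), ZT16 replicate 3 (4), ZT20 replicate 2 (4) or ZT20 replicate 3 (7). In the same order the shares of all genes called were 6.95%, 10.1%, 9.61%, 5% and 16.6%. Where no member was called the share was 0.0124% to 0.0808%. With the oligodendrocyte score as a covariate none of the 5 calls held, and 0.0257% of all genes were called.

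**Figure D2:**
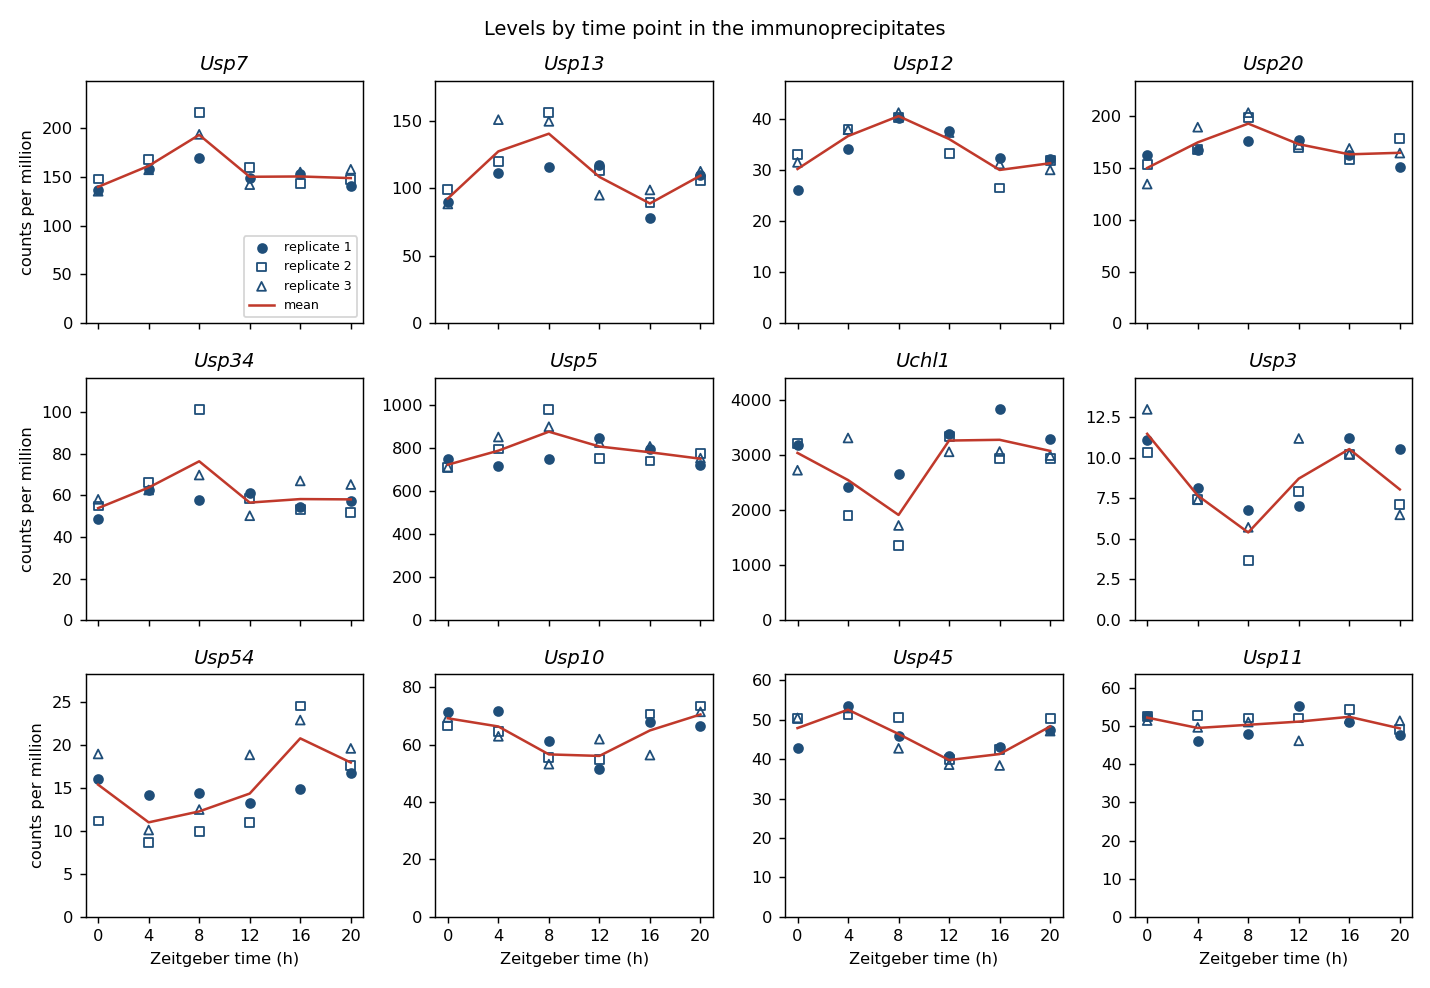
Level in CPM (vertical axis, from 0) against Zeitgeber time in h for the 11 members called in any test and for Usp11, the flattest; symbols are the 3 replicates and the line joins the means. Usp7, Usp13 and Usp12 stand highest at ZT8, Uchl1 and Usp3 lowest, and Usp11 stays between 46.0 and 55.2 CPM.

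A test of any difference among the 6 time points called Usp13 (adjusted p = 0.0263), Usp7 (0.0361) and Usp3 (0.0448), 3 of 47 members (6.38%) where 6.74% of all genes were called. Without ZT8 replicate 1 the count was 6 (Uchl1, Usp34 and Usp54 were added), beside 15.2% of all genes. The count was 0 without ZT0 replicate 1 or 3, ZT4 replicate 2, ZT8 replicate 2 or 3, or ZT16 replicate 1. In these settings 0.0314% to 1.04% of all genes were called. The count was 1, Usp13 alone, without ZT12 replicate 2, ZT16 replicate 2 or ZT20 replicate 2, beside 2.67% to 3.43% of all genes. Of pairs of times, ZT8 with ZT0, ZT16 with ZT8 and ZT20 with ZT8 were tested, and they share the ZT8 libraries and are given side by side. ZT8 with ZT0 and ZT16 with ZT8 were picked because an earlier analysis of these data had many calls there over all genes. Their adjusted p-values do not account for that choice.

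Between ZT8, in the light phase, and ZT0, lights on, 8 of 47 members differed (17.0%), beside 18.0% of all genes. Higher at ZT8 were Usp7, Usp13, Usp12, Usp20, Usp34 and Usp5 (6 of 47, 12.8%, beside 8.95% of all genes). Lower were Usp3 and Uchl1 (4.26%, beside 9.02%). Between ZT16, in the dark phase, and ZT8, 6 of 47 differed (12.8%, beside 16.9%). Usp13, Usp12 and Usp7 were lower at ZT16 (6.38%, beside 7.80%), and Usp3, Uchl1 and Usp54 were higher (6.38%, beside 9.11%). The members' median log2 change was 0.02 from ZT0 to ZT8 and -0.02 from ZT8 to ZT16, beside -0.00296 and 0.00472 over all genes, so the family had no common direction. In 13 of 47 members the ZT8 and ZT0 libraries did not overlap (27.7%, beside 34.7% of all genes), and in 13 the ZT16 and ZT8 libraries did not (27.7%, beside 27.2%).

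Usp5 and Usp13 were both higher at ZT8 than at ZT0. Usp13 had 90.0, 99.2 and 88.5 CPM at ZT0, 116, 156 and 150 at ZT8, and 78.1, 89.7 and 98.9 at ZT16. Every ZT8 library was above every ZT0 and ZT16 library. The log2 change was 0.60 (SE 0.131, adjusted p = 0.00735) from ZT0 to ZT8 and -0.66 (SE 0.131, adjusted p = 0.00699) from ZT8 to ZT16. Usp5 had 749, 710 and 713 CPM at ZT0 and 750, 982 and 901 at ZT8, so that the nearest libraries of the groups, at 749 and 750, almost met. Its change was 0.28 (SE 0.0953, adjusted p = 0.0484), and from ZT8 to ZT16 it was -0.17 (adjusted p = 0.246). The Usp5 call is a marginal one: it was lost with library totals, a 10-count filter, no filter or the oligodendrocyte score (adjusted p 0.0540 to 0.121), and without ZT8 replicate 2 the change was 0.18 (adjusted p = 0.295).

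Among members linked to clock proteins, Usp7 changed and Usp2 and Usp9x did not pass any test. Usp7, which also acts on MDM2 and p53, had 136, 148 and 135 CPM at ZT0, 169, 215 and 193 at ZT8, and 153, 143 and 155 at ZT16. Its ZT8 libraries lay above all 6 of the others. The log2 change was 0.47 (SE 0.0956, adjusted p = 0.00640) from ZT0 to ZT8 and -0.36 (SE 0.0956, adjusted p = 0.0161) from ZT8 to ZT16. Usp2, a light- and clock-responsive gene in other tissues, was low, at 5.69 to 15.2 CPM. It had 12.8, 7.16 and 8.13 CPM at ZT0 and 9.87, 11.6 and 15.2 at ZT8, which overlap, with a change of 0.38 (SE 0.229, adjusted p = 0.274). Usp9x had a change of 0.02 (SE 0.116, adjusted p = 0.944) between the same times.

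Of the 3 members that work with Wdr48, Usp12 was higher at ZT8 than at ZT0 by 0.43 (SE 0.114, adjusted p = 0.0157) and lower at ZT16 than at ZT8 by a log2 change of -0.44 (SE 0.114, adjusted p = 0.0151). Usp46, its close paralog, had 30.0, 35.1 and 36.5 CPM at ZT0 and 42.4, 37.8 and 42.9 at ZT8. The groups did not overlap, but the change of 0.28 (SE 0.136) had an adjusted p of 0.170. Usp1, an enzyme of DNA crosslink repair, was at 3.90 to 8.97 CPM, and its change was 0.33 (SE 0.228, adjusted p = 0.351).

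Usp20 and Usp34 were higher at ZT8 than at ZT0 and not called against ZT16. Usp20 had 162, 154 and 135 CPM at ZT0 and 177, 199 and 204 at ZT8, with no overlap, and changed by 0.36 (SE 0.0966, adjusted p = 0.0155). Usp34, a very large USP, had 48.6, 54.9 and 58.1 CPM at ZT0 and 58.0, 101 and 69.8 at ZT8. The groups overlapped, with ZT8 replicate 2 far above the rest, and the change was 0.51 (SE 0.158, adjusted p = 0.0329). Without ZT8 replicate 2 the change of Usp34 was 0.23 (adjusted p = 0.327).

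Uchl1 and Usp3 ran the other way. Uchl1 had 3174, 3212 and 2722 CPM at ZT0, 2654, 1356 and 1719 at ZT8, and 3827, 2934 and 3062 at ZT16. The ZT8 libraries were all lower than those of ZT0 and ZT16, replicate 1 by a narrow margin. The log2 change was -0.67 (SE 0.189, adjusted p = 0.0206) from ZT0 to ZT8 and 0.78 (SE 0.190, adjusted p = 0.0112) from ZT8 to ZT16. At ZT4 the replicates of Uchl1 spread from 1900 to 3308 CPM, so that ZT8 replicate 1 was not below all of them. Because Uchl1 is so abundant, the summed level of all members was lowest in ZT8 replicate 2 (5046 CPM) and replicate 3 (5153), and without Uchl1 the same libraries had the highest sums, 3690 and 3434 CPM. Usp3, a deubiquitinase of histone H2A, had 11.1, 10.3 and 13.0 CPM at ZT0, 6.81, 3.67 and 5.71 at ZT8, and 11.2, 10.2 and 10.2 at ZT16, with no overlap. It changed by -1.10 (SE 0.234, adjusted p = 0.00714) and then by 0.97 (SE 0.235, adjusted p = 0.0107). The other UCH members showed no such difference: from ZT0 to ZT8 Uchl3 changed by -0.13 (SE 0.160, adjusted p = 0.617) and the proteasome-bound Uchl5 by 0.10 (SE 0.128, adjusted p = 0.621).

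Of these contrasts Usp54 was called only in that of ZT16 with ZT8. It had 14.4, 9.92 and 12.5 CPM at ZT8 and 14.9, 24.5 and 22.9 at ZT16, and the lowest ZT16 library was just above the highest ZT8 library. The change was 0.77 (SE 0.239, adjusted p = 0.0331), and from ZT0 to ZT8 it was -0.34 (SE 0.240, adjusted p = 0.358).

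**Figure D3:**
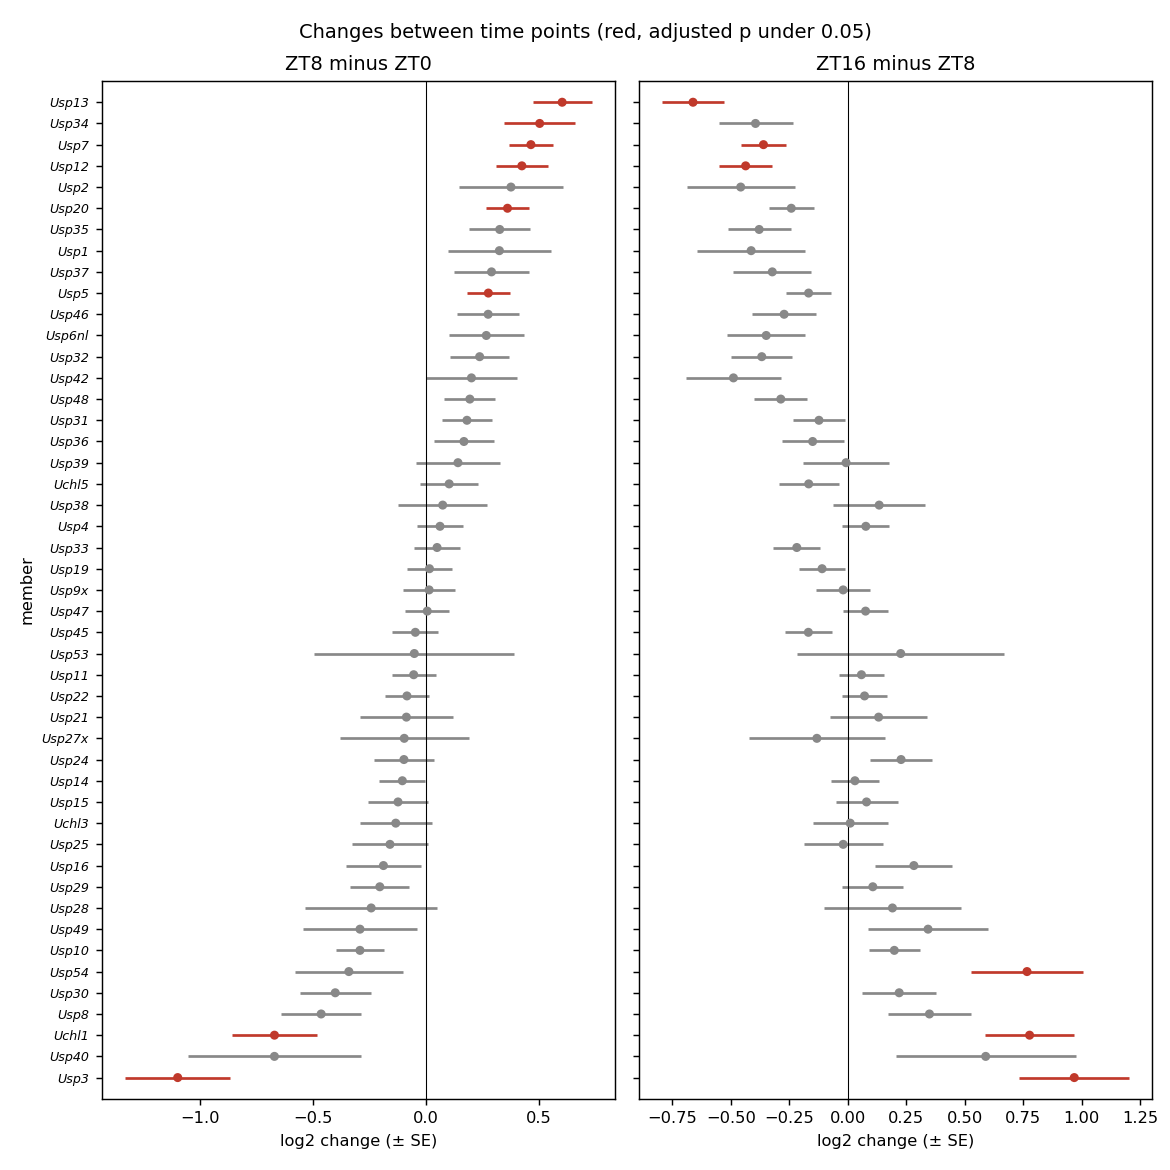
Log2 change with its SE for the 47 tested members, ZT8 minus ZT0 on the left and ZT16 minus ZT8 on the right, in the order of the left panel; red marks an adjusted p under 0.05. Both panels share the ZT8 libraries. Usp13, Usp34, Usp7 and Usp12 lie at 0.43 to 0.60 on the left, and Usp3 lies lowest at -1.10.

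Other members of stated interest did not pass between ZT8 and ZT0. Usp30, the deubiquitinase of the outer mitochondrial membrane, had 48.1, 42.4 and 41.5 CPM at ZT0 and 39.2, 30.9 and 30.0 at ZT8, without overlap, and changed by -0.40 (SE 0.158, adjusted p = 0.0834). Usp10 changed by -0.29 (SE 0.108, adjusted p = 0.0673). Usp14 changed by -0.10 (SE 0.102, adjusted p = 0.528), Usp22 by -0.08 (SE 0.0976, adjusted p = 0.610) and Usp39, an inactive relative that belongs to the spliceosome, by 0.14 (SE 0.184, adjusted p = 0.639).

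Between ZT20 and ZT8, 12 h apart and named by the study as opposing peaks, no member passed (0 of 47, beside 0% of all genes, edgeR). At an unadjusted p under 0.05 there were 12 of 47 members (25.5%) and 22.3% of all genes, and the lowest adjusted p among members was 0.0684, for Usp7. In 12 of 47 members the libraries of the times did not overlap (25.5%, beside 20.9%). DESeq2 called 3 members here (Uchl1, Usp12 and Usp7), and 10.1% of all genes. Without ZT8 replicate 1 edgeR called 6 (Uchl1, Usp10, Usp13, Usp34, Usp5 and Usp7) and 14.4% of all genes, and without ZT16 replicate 3 it called 2 (Uchl1 and Usp7) and 3.59% of all genes.

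The ZT8 calls moved with the first principal component and rested on few libraries. With that component as a covariate no member was called in any of the 6 tests, and over all genes 1 to 18 were. The component was made from the same libraries and so also holds differences between time points. On the component ZT8 replicate 1 (5.03) lay among libraries of other times, and ZT8 replicates 2 and 3 were the extreme ones. Without ZT8 replicate 1, 11 members differed between ZT8 and ZT0 and 9 between ZT16 and ZT8. These included all 8 and all 6, while the shares of all genes called also rose, to 24.9% and 24.1%. Without ZT8 replicate 2 the counts were 0 and 0, beside 1.72% and 0.545% of all genes. Without ZT8 replicate 3 they were 3 (Usp13, Usp3 and Usp7) and 2 (Usp13 and Usp3), beside 6.99% and 5.84%. Without ZT0 replicate 1 or 3 the first count was 4 or 5, beside 3.99% or 7.05% of all genes. Without ZT16 replicate 2 the second was 0, beside 0.45%. Without ZT8 replicate 2 the log2 changes from ZT0 to ZT8 were 0.37 for Usp7, 0.51 for Usp13, 0.42 for Usp12, 0.33 for Usp20, 0.23 for Usp34, 0.18 for Usp5, -0.89 for Usp3 and -0.48 for Uchl1, all 8 in the same direction with adjusted p from 0.0556 to 0.327.

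**Figure D4:**
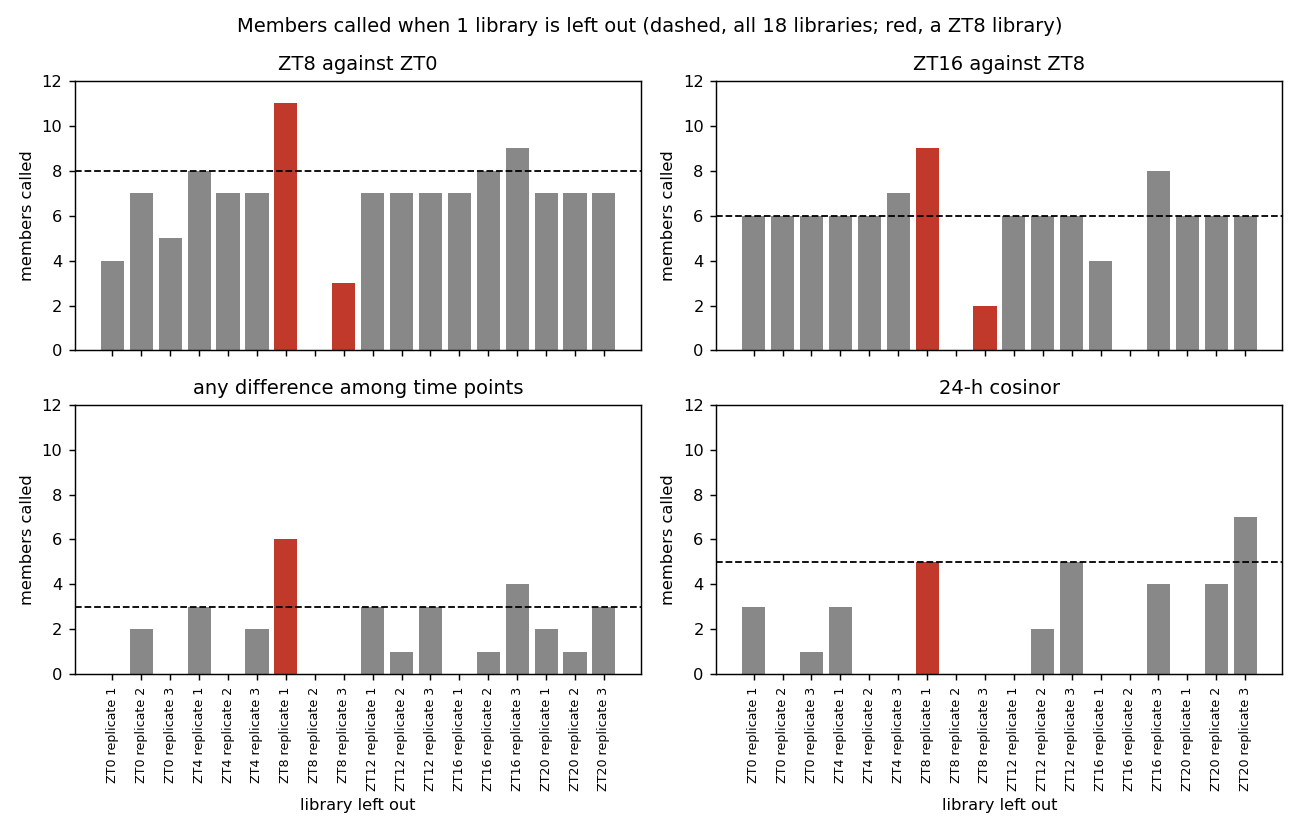
Number of members called (vertical axis) when the library named on the horizontal axis is left out, in 4 tests; the dashed line is the number with all 18 libraries and ZT8 libraries are red. Without ZT8 replicate 1 the upper panels reach 11 and 9, and without ZT8 replicate 2 they fall to 0.

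Cell type markers also moved at these times. Of 7 cholinergic markers 4 were lower at ZT8 than at ZT0 and none higher, and 5 were higher at ZT16 than at ZT8. Their summed level was 4295 to 4768 CPM at ZT0, 4230 to 4685 at ZT8 and 4623 to 5027 at ZT16, so the sums at ZT8 overlapped those at ZT0 and at ZT16. The median log2 change of the 7 markers was -0.64 from ZT0 to ZT8 and 0.59 from ZT8 to ZT16, beside -0.67 and 0.78 for Uchl1. The summed astrocyte markers were at 807 to 916 CPM at ZT0, 953 to 1347 at ZT8 and 736 to 1003 at ZT16, with 1 of 6 higher at ZT8 than at ZT0 and 1 lower at ZT16 than at ZT8. Most of this sum was S100b, at a mean of 830 CPM in the immunoprecipitates (scaled with the input), which was not depleted against the input. The median log2 change of the 6 astrocyte markers went the other way from the sum, at -0.17 from ZT0 to ZT8 and 0.14 from ZT8 to ZT16. Oligodendrocyte markers summed to 1827 to 2207 CPM at ZT0, 1744 to 2002 at ZT8 and 1932 to 2887 at ZT16 (1 of 7 lower at ZT8, 1 higher at ZT16). Of the others, 1 of 5 microglial markers was higher at ZT8 and lower at ZT16, 2 of 4 inhibitory markers were lower at ZT8, and none of 3 excitatory and 4 endothelial markers was called. No marker list held a gene at 0 in all immunoprecipitates. Apart from the oligodendrocyte score, the part of these markers in the members' changes was not tested. With the oligodendrocyte score as a covariate 7 members differed between ZT8 and ZT0 and 6 between ZT16 and ZT8 (19.1% and 17.7% of all genes). With the same covariate the time-point test called 2 members (6.99% of all genes). The cosinor and JTK_Cycle then called no member, and 4 and 1 of all genes.

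The promoters of the members that changed in both contrasts, and of Usp54, are shown because they differ in composition while the family is mostly rich in CpG (a C followed by a G). The sequences are RefSeq promoter windows on GRCm38.p6, 250 bases before to 50 after the transcript start, 5′ to 3′ on the gene's strand, with every CpG in capitals. Higher at ZT8 were Usp7 (chr16:8738293-8738592, minus strand, 63 CpG, 86% G or C), Usp12 (chr5:146794907-146795206, minus strand, 37 CpG, 75.7%) and Usp13 (chr3:32817376-32817675, plus strand, 36 CpG, 73.7%). Lower at ZT8 were Usp3 (chr9:66593066-66593365, minus strand, 22 CpG, 65%) and Uchl1 (chr5:66675871-66676170, plus strand, 9 CpG, 50.7%). Usp54, lower at ZT8 than at ZT16, has the poorest window of those shown (chr14:20618305-20618604, minus strand, 5 CpG, 46.7%). The windows of Usp54, Usp7 and Usp13 lie wholly inside the annotated genes (chr14:20548912-20644491, chr16:8688722-8757067 and chr3:32816283-32938075). They thus belong to internal transcript starts and not to the outermost 5′ end of these genes.
Usp7: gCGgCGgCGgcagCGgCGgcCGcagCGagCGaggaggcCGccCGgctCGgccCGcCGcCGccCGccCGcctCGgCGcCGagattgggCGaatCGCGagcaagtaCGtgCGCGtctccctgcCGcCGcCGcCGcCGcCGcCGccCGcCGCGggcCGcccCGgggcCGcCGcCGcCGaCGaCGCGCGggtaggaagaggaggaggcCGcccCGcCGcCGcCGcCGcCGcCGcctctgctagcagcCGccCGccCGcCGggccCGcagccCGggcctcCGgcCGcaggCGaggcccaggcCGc
Usp12: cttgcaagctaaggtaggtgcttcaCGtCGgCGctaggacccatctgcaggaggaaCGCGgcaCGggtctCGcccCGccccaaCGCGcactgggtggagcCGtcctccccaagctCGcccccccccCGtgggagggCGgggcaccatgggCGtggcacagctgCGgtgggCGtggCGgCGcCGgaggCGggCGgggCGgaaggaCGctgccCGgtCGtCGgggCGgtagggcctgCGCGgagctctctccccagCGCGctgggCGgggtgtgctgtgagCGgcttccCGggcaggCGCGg
Usp13: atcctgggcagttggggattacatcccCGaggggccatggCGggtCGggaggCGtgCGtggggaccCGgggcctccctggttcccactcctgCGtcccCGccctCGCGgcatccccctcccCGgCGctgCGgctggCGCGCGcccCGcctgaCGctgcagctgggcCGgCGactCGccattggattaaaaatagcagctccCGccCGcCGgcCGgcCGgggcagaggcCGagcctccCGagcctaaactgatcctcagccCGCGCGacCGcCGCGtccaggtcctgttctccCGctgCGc
Usp3: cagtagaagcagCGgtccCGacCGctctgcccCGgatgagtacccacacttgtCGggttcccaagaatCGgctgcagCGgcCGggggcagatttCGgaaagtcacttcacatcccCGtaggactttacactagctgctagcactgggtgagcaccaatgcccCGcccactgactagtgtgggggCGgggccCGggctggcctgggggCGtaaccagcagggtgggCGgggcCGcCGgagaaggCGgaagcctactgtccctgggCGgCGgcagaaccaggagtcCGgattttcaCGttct
Uchl1: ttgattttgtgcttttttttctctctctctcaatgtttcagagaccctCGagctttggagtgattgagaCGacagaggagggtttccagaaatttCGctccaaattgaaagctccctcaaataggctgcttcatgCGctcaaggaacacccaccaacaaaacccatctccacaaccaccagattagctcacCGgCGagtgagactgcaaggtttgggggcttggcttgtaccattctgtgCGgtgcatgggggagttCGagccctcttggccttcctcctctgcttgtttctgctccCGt
Usp54: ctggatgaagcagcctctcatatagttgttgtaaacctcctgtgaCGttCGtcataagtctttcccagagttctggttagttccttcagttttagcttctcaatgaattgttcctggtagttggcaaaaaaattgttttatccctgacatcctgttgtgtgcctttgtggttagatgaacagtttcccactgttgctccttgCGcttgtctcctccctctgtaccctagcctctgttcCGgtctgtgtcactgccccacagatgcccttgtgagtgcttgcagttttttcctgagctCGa

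Members had 48 windows in 47 genes, with a median of 25 CpG and 63.2% G or C, beside 7 CpG and 52.7% over 32851 windows. The 5 members higher at ZT8 than at ZT0 with a window had a median of 75.7% (66.3% to 86%), and both of the lower ones, Uchl1 and Usp3, were at 50.7% and 65%. The 31 members not called had a median of 65% (45% to 79%), a range that holds both lower ones and overlaps that of the higher ones. Over all tested genes the medians were close. They were 61% for those higher at ZT8 (1102 genes), 61.3% for those lower (1108) and 60.7% for those not called (9593). A difference in composition by direction was not tested. The windows were also searched on both strands for 4 short motifs, of which some could overlap one another in a sequence. The E-box of the clock, CACGTG, was in 5 of 48 windows (Usp16, Usp31, Usp32, Usp4 and Usp6nl, 10.4%) and in 7.15% of all. A D-box, TTANGTAA, was in 0 of 48 and in 2.32% of all. The ROR element core AGGTCA was in 4 (Uchl4, Usp10, Usp20 and Usp51, 8.33%) and in 16.3% of all, and the cyclic AMP response element TGACGTCA was in 1 (Usp29, 2.08%) and in 1.79%. None of the 4 motifs is in the 6 windows printed.

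The immunoprecipitates were set against the pooled input, which has no replicate, so these ratios have no test. A member was called enriched or depleted where the mean level departed from the input by 2-fold or more and each of the 18 libraries departed in that direction. Of 50 members compared, 6 were enriched (12.0%, beside 13.8% of 17901 genes) and 7 were depleted (14.0%, beside 23.0%). The median log2 ratio of the members was -0.15, beside -0.08 over all genes, and 40% of members were above the input on average, beside 47.7%. Levels here are scaled over all 19 libraries.

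Usp13 had the highest ratio. It had 21.2 CPM in the input (400 counts, exact 95% Poisson interval 19.1 to 23.3, counting error only) and 78.9 to 158 CPM in the immunoprecipitates, a 5.32-fold ratio of means. Uchl1 had 575 CPM in the input and 1370 to 3869 in the immunoprecipitates, a 5.01-fold ratio. Usp5 was 4.39-fold higher, with 182 CPM against 715 to 992. Usp13, Uchl1 and Usp5 thus had the 3 highest ratios. Usp20 (3.13-fold), Usp35 (2.87-fold) and Uchl5 (2.33-fold) completed the enriched members, and Usp7 (1.72-fold), Usp10 (1.46-fold), Usp14 (1.45-fold) and Uchl3 (1.37-fold) were above the input in all 18 libraries without reaching 2-fold. Usp9x (log2 ratio -0.00170), Usp22 (0.08), Usp39 (0.09), Usp30 (-0.14) and Usp12 (-0.12) were near the level of the input. Usp46 (-0.72) and Usp2 (-0.77) lay under it in all 18.

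The lowest ratio was that of Usp53, a relative of Usp54, with 29.4 CPM in the input (556 counts) and 0.602 to 4.30 CPM in the immunoprecipitates, a log2 ratio of -3.42. Usp54 had 97.6 CPM in the input (1845 counts) and 8.79 to 24.99 in the immunoprecipitates, a log2 ratio of -2.66. Usp43 (-2.72) lay between them, on 14 counts in the input. Usp1 (-1.40), Usp40 (-1.28), Usp6nl, which despite its name is a Rab GTPase-activating protein (-1.11), and Usp31 (-1.06) were the remaining depleted members. The depletion of Usp54 holds at every time, the highest library being at ZT16. The oligodendrocyte sums of ZT16, 1932 to 2887 CPM, overlap those of ZT8, 1744 to 2002 CPM. With the oligodendrocyte score as a covariate the change of Usp54 from ZT8 to ZT16 was 0.71 (edgeR, adjusted p = 0.0589), beside 0.77 without it. The cause of the Usp54 change was not tested.

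**Figure D5:**
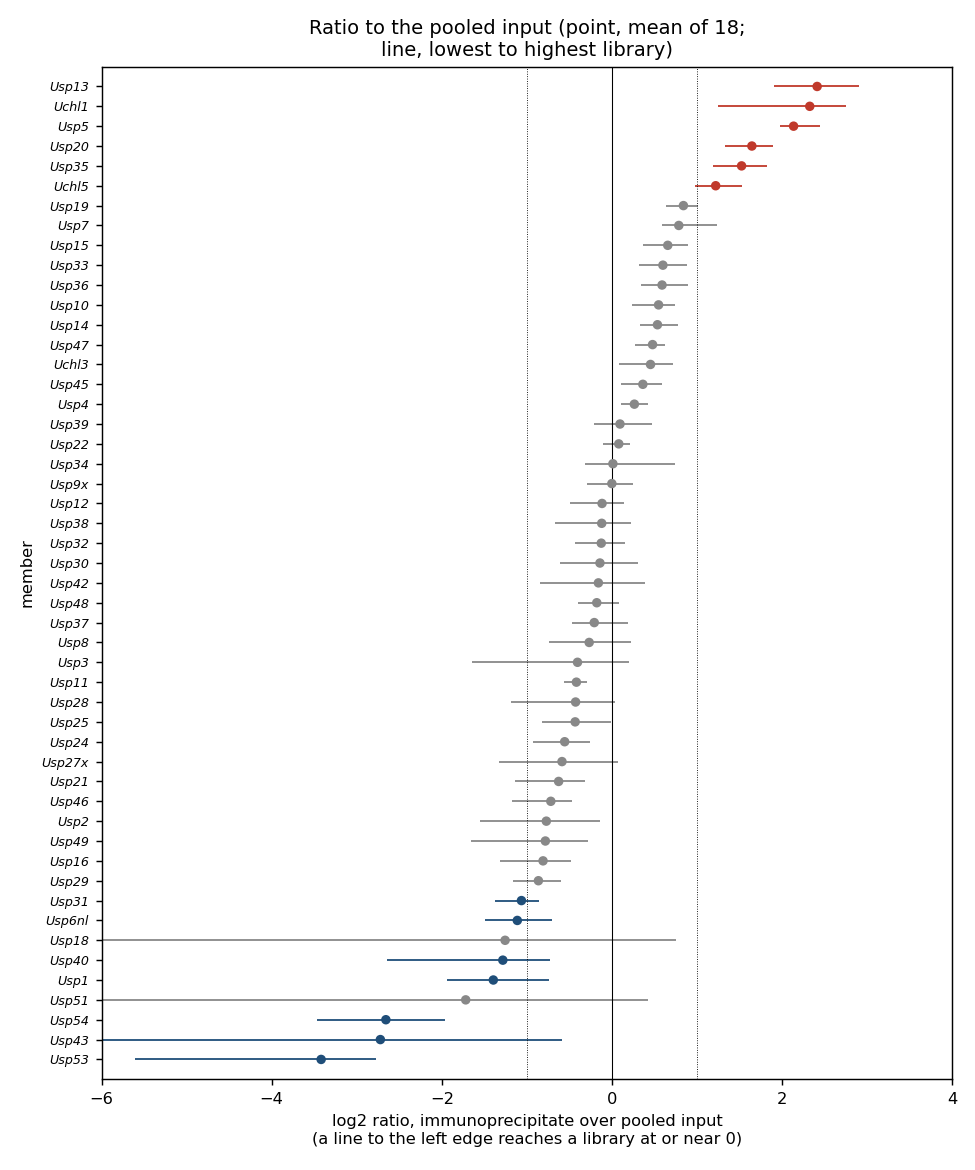
Log2 ratio of immunoprecipitate to pooled input for 50 members, with the mean of 18 as a point and the lowest to highest library as a line; red marks enriched and blue depleted members, and dotted lines mark a 2-fold ratio. Usp13, Uchl1 and Usp5 lie at 2.13 to 2.41 and Usp53 lies at -3.42.

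Genes that work beside the members were taken from 3 lists. Their counts are to be read beside the shares of all genes, 18.0% between ZT8 and ZT0 (8.95% higher, 9.02% lower), 16.9% between ZT16 and ZT8 (9.11% higher, 7.80% lower), 6.24% in the cosinor, 6.74% in the time-point test, and 13.8% enriched and 23.0% depleted against the input. Of 32 other deubiquitinases, all tested, 9 differed between ZT8 and ZT0 (7 higher, 2 lower) and 5 between ZT16 and ZT8 (3 higher, 2 lower), and 2 each passed the cosinor and the time-point test. Those 2 were the OTU enzyme Zranb1 and Psmd14, the deubiquitinase of the proteasome lid. Zranb1 was at 66.8 ± 6.61 CPM (SD, n = 3) at ZT0, 107 ± 9.61 at ZT8 and 63.0 ± 2.94 at ZT16, with changes of 0.68 (SE 0.123, adjusted p = 0.00519) and -0.76 (SE 0.124, adjusted p = 0.00476). Psmd14 was at 73.0 ± 7.57, 37.0 ± 10.0 and 71.0 ± 14.5 CPM, with changes of -0.99 (SE 0.180, adjusted p = 0.00519) and 0.94 (SE 0.180, adjusted p = 0.00692). Against the input 4 of the 32 were enriched and 5 depleted.

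Of 9 partners 3 differed between ZT8 and ZT0 (2 higher, 1 lower) and 4 between ZT16 and ZT8 (2 higher, 2 lower), 2 passed the cosinor, 1 the time-point test, and 2 were enriched and 1 depleted against the input. The proteasome receptors that hold the members went in opposite directions. Psmd2, which binds Usp14, was at 523 ± 21.6 CPM at ZT0 and 671 ± 56.1 at ZT8 (change 0.36, adjusted p = 0.00900), and Adrm1, which binds Uchl5, was at 145 ± 12.8 and 104 ± 18.7 CPM (change -0.48, adjusted p = 0.0246). Eny2, a subunit of the SAGA module with Usp22, changed by 0.66 (adjusted p = 0.00788). Wdr48, the partner of Usp12, was higher at ZT16 than at ZT8 by 0.48 (adjusted p = 0.0473), the other way from Usp12.

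Of the 6 ubiquitin and E1 genes 3 differed between ZT8 and ZT0 (1 higher, 2 lower) and 4 between ZT16 and ZT8 (3 higher, 1 lower), 2 passed the cosinor, 3 the time-point test, and 3 were enriched and 1 depleted against the input. Uba1, the main enzyme that activates ubiquitin, was at 250 ± 30.3 CPM at ZT0, 102 ± 44.0 at ZT8 and 273 ± 75.5 at ZT16 (changes -1.29 and 1.42, adjusted p = 0.00567 and 0.00575). Rps27a, which encodes ubiquitin fused to a ribosomal protein, went from 255 ± 38.8 to 543 ± 178 CPM (change 1.09, adjusted p = 0.00860). None of the 3 lists had a gene called by JTK_Cycle or between ZT20 and ZT8.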

How the data were processed

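The authors aligned 150-bp paired-end reads of stranded mRNA libraries to mm10 with STAR 2.7.5 and estimated counts per gene with RSEM. The deposited table holds these expected counts for 18 immunoprecipitates and 1 pooled input, not normalized. Libraries were made from RNA with an integrity number above 7. No column was left unmapped. Replicate libraries came from separate biological replicates.

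Expected counts were rounded to whole numbers, filtered with filterByExpr and scaled by TMM in edgeR 4.0.16 (R 4.3.3, limma 3.58.1). Tests were fitted on all 15572 genes over 18 immunoprecipitates with edgeR's quasi-likelihood test, and p-values were adjusted by Benjamini-Hochberg over all genes with a threshold of 0.05. JTK_Cycle was written anew with an exact null, equal cosine values merged and 18 templates at steps of 2 h, on log2 CPM with a prior count of 2. DESeq2 1.42.0 was an alternative. The edgeR tests and JTK_Cycle, without covariates, were also run on simulated data. The DESeq2, covariate and replicate block fits were not. Exon lengths are from GENCODE M21 and promoter windows from RefSeq (GRCm38.p6); all 60 members matched both sets of gene names.

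Members, lists and the contrasts of ZT8 with ZT0 and ZT16 with ZT8 were chosen with earlier results of these data known. Members were named with values if they passed the JTK_Cycle, cosinor or time-point test, if they were among the lowest p-values of a contrast (5 in each direction), the 5 highest or lowest input ratios with at least 100 input counts, the 8 highest per kb, of stated interest, or at 0. Usp31, Usp43, Usp24, the members with a promoter motif and the flattest members were named after their values were seen. Alternatives covered scaling, filters, a replicate block, left-out libraries, covariates, thresholds and DESeq2.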

Additional observations from a re-analysis of the deposited data

How the results depend on the processing

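Scaling by DESeq2 size factors kept every count within 1.5 times. The JTK_Cycle count of 1 was 0 with library totals, a threshold of 0.01, the first principal component or the oligodendrocyte score as a covariate, the ZT8 time point left out or the 24-h period alone, 3 with equal cosines ordered by rounding and 8 with adjustment within the gene alone. In the last 2 settings 1.7% and 15.8% of all genes were called. The cosinor count of 5 was 0 with the 0.01 threshold, either covariate or ZT8 left out. The time-point count of 3 was 0 with the 0.01 threshold, the first component or ZT8 left out, 7 without a filter and 9 with DESeq2. Over all genes that test called 10.8% without a filter and 19.5% with DESeq2. Where the JTK_Cycle, cosinor or time-point count was 0 in these settings, at most 0.116% of all genes were called. From ZT0 to ZT8 the count of 8 was 3, and from ZT8 to ZT16 the count of 6 was 1, with the 0.01 threshold, and both were 0 with the first component, under which the change of Usp34 from ZT0 to ZT8 was -0.14. With the 0.01 threshold 4.8% and 4.35% of all genes were called in these contrasts. Between ZT20 and ZT8 the count of 0 was 2 without a filter (6.41% of all genes) and 3 with DESeq2 (10.1%). The cause of these differences was not tested, apart from the stricter threshold and the wider adjustment, which act by construction.

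With a replicate block the JTK_Cycle count was 3, the cosinor count 3, the time-point count 4 and the 3 contrasts 7, 6 and 0. In the same order the shares of all genes called were 2.29%, 4.97%, 6.45%, 17.7%, 16.6% and 0.045%. Usp10 and Usp13 were lost from the cosinor calls and Usp5 from those of ZT8 against ZT0. The replicate numbers do not pair the libraries: deviations of same-numbered libraries correlated at -0.151 to 0.176 (median -0.00416, 4 of 45 over 0.1). Leaving out a library or a replicate number gave 0 to 2 for JTK_Cycle, 0 to 7 for the cosinor, 0 to 6 for the time points, 0 to 11 from ZT0 to ZT8, 0 to 9 from ZT8 to ZT16 and 0 to 6 between ZT20 and ZT8. Without replicate number 2 all 6 counts were 0, and so were those over all genes.

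Against the input, a 1.5-fold limit gave 11 enriched and 13 depleted members, 24 in all instead of 13 (21.5% and 28.9% of all genes), and library totals gave 12 depleted members and a median log2 ratio of -0.48 (29.9% and -0.41 over all genes). The input has no replicate, so its own spread is unknown. Of 383 values of single members under an alternative, 199 kept sign and call, 183 kept sign and lost the call, and 1 turned. The cosinor values among them are amplitudes, which are always positive. Their sign could not turn, so only the calls are informative there, and their peak times were not compared.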
